A study of Mus musculus with 12 samples.

Results

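Molecular chaperones of the cytosol and the mitochondrion are the proteins that bind unfolded or newly made polypeptides and help them fold. The set described here was given as 32 gene symbols, and its members were found by those symbols in the platform's probe annotation, with clusters that carry several symbols allowed. Of the 32 genes, 30 had a transcript cluster (the array's unit of measurement for a gene), out of 21335 genes with a cluster. Hsp90ab1 and Hsf1 were not named by that annotation and were not analysed here. Hspa1a and Hspa1b shared 1 cluster that carries both symbols, so 29 clusters stand for the 30 genes among 20223 clusters tested. Where a gene had several clusters (7 members), the cluster with the highest mean level was used. For Hspa8, Hsp90aa1, Dnaja1, Hspd1 and Hspe1 it is not known here which cluster lies on the gene and which on a near-identical copy. The annotation also puts Snord14c and Snord14d on some Hspa8 clusters and Mir207 on a Dnaja1 cluster. The clusters used for Hspa8 and Dnaja1 are not among these, so their calls may come from copies.

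The series measured how gene expression in mammalian cells responds when polyamines run low. NIH3T3 cells, an established mouse fibroblast line, were given 1 mM DFMO, an inhibitor of ornithine decarboxylase, the first enzyme of polyamine synthesis. RNA came from the sorted G1 fraction and was hybridised to whole-transcript mouse arrays. There were 3 arrays of untreated cells (0 h) and 2, 3, 2 and 2 arrays of cells after 12, 24, 48 and 96 h in the drug. The labels name no genetic change in any group, and all groups share the serum-containing medium and the G1 gate. Per the labels, DFMO went on 1 day after the cells were seeded, and the arrays of a group are biological replicates of the line. Untreated cells of later times were not analysed here, so hours in culture and hours in the drug cannot be told apart. Values are deposited log2 levels, and a log2 change of 1 is a 2-fold change. Levels of different genes on an array depend on their probes and are not compared.

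Chaperones work in relays. HSP40 proteins deliver clients to HSP70 and speed its ATP cycle, HSP110 and BAG proteins release the nucleotide, and HSP90 with its co-chaperones finishes the folding of kinases and steroid receptors. Small heat shock proteins hold unfolded clients without ATP, the CCT ring folds actin and tubulin in the cytosol, and the HSP60 ring with its HSP10 lid does the same work for proteins of the mitochondrial matrix. Heat shock factors bind repeated GAA units before many of these genes and raise their transcription when unfolded protein accumulates.

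These repeated units were looked for in RefSeq promoter windows (assembly GRCm38.p6, 250 bases before to 50 after each start), which were found for 25 of the 32 members. The search pattern was 3 alternating units, GAANNTTCNNGAA, on both strands, where N is any base. It occurred in 198 of 32851 windows (0.603%), in 179 of 27025 genes (0.662%), and in 4 of the 25 members (16%): Hspd1, Hspe1, Hsph1 and Chordc1. The shorter patterns GAANNTTC and TTCNNGAA, which both lie within the longer one, were counted together. Either of them occurred in 17.0% of genes and in 14 of the 25 members (56%). Hspd1 and Hspe1, which encode HSP60 and HSP10, stand head to head on chromosome 1. Of the 2 Hspd1 windows, 1 has its start 216 bases from that of Hspe1, and 285 of the 300 bases of these windows are the same DNA. The other Hspd1 window (chr1:55088194-55088493, minus strand) held 0 matches of either length. The 3 stretches that hold the matches are printed because they carry the full pattern. The capitals mark the bases of the matches. The first is the whole interval between the Hspe1 start and the Hspd1 start 216 bases away, read on the Hspe1 strand (chr1:55087933-55088147, plus strand). The second spans the start of Chordc1 (chr9:18292258-18292287, plus strand), and the third lies after the start of Hsph1 (chr5:149636287-149636316, minus strand).
Hspe1 and Hspd1: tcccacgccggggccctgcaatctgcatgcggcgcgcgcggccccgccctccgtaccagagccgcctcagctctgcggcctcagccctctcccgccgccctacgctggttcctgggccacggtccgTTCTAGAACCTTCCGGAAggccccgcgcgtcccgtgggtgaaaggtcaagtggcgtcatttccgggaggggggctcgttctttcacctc
Chordc1: aaccgGAACGTTCGGGAAAATTCCTGAAgc
Hsph1: agtaaaatgctgcagaTTCTGGAAAGTTCt
The Hspe1 and Hspd1 block is 18 bases long with 2 overlapping matches, the Chordc1 block 23 bases with 3, and Hsph1 has 1 match of 13 bases. At 96 h the log2 changes of the 4 genes against untreated cells were -0.70 for Hspd1, 0.07 for Hspe1, -0.47 for Hsph1 and 0.64 for Chordc1. The values of the genes with the full pattern thus lay on both sides of 0. Those of Hspd1 and Chordc1 passed the limma test described below, and those of Hspe1 and Hsph1 did not. A match describes letters in a window and does not show that a factor binds there.

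The 12 arrays had medians between 4.12 and 4.17 over the tested clusters, and replicates of a group correlated at 0.994 to 0.998 across clusters. Fibroblast markers were measured for 10 of 10 genes with a median untreated level of 10.2, with Fap lowest at 3.44 and Vim highest at 12.3. The untreated medians of 9 leukocyte, 10 epithelial and 10 endothelial markers were 3.92, 3.53 and 3.55, near the background of the array. The cluster of the leukocyte gene Itgam read 10.1, but it is shared with the ribosomal protein gene Rpl35, so neither this level nor its change can be credited to Itgam. At 96 h 1 fibroblast marker rose and 5 fell, and Lyz2 (leukocyte), Cdh1 (epithelial) and Tek (endothelial) rose, by 1.90, 0.58 and 0.34 from untreated levels of 4.34, 4.04 and 3.37; their part in the results was not tested. Genes of DNA replication and mitosis (9 measured) averaged 8.73 to 8.94 in untreated arrays, 7.91 to 7.95 at 48 h and 5.01 to 5.05 at 96 h. Of these 9, 8 fell at 48 h and 9 at 96 h, so the proliferation genes moved with the chaperone falls described below, and their part in those falls was not tested. In bulk RNA, fewer cells of a type and less RNA per cell cannot be told apart.

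After 12 h and 24 h of DFMO none of the 29 chaperone clusters passed the test (limma, Benjamini-Hochberg adjusted p under 0.05 over all 20223 clusters). The background was the same, since 0% of all clusters were called higher and 0% lower at either time. The smallest adjusted p of a member was 0.99 at 12 h and 0.473 at 24 h. Before adjustment, 1 member had p under 0.05 at 12 h (741 clusters in all) and 6 members at 24 h (1593 clusters in all). Hspa4l, a cytosolic HSP110 protein, was the member at 12 h, with a log2 change of -0.33. At 24 h the 6 members were Hspa4l (-0.37), Bag3 (-0.35), Hspb8 (-0.31), Stip1 (-0.20), Fkbp4 (-0.14) and Hspe1 (0.29), none of them a call. The median log2 change of the 29 clusters was -0.04 at 12 h and -0.06 at 24 h, against -0.01 and -0.02 over all clusters tested.

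At 48 h 9 of the 29 clusters fell and 0 rose, where 3.17% of all clusters were called lower and 2.7% higher. The 9 were Hspa8, Hspa4l, Bag3, Hsp90aa1, Stip1, Fkbp4, Hspb8, Cryab and Tcp1. They come from 6 of the 8 families, and their log2 changes ran from -0.82 (Hspa4l) to -0.26 (Hspa8). The log2 change was below 0 in 25 of the 29 clusters, with a median of -0.27 against -0.03 over all clusters tested. Between 24 h and 48 h, tested directly, 0 of the 29 members were called (0.519% of all clusters higher, 1.14% lower). Before adjustment, 13 members had p under 0.05 (2376 clusters in all), and the smallest adjusted p was 0.0583, for Tcp1. The 48 h calls rest on both arrays of that group, since leaving out either ended calls among the members. Calls over all clusters also became fewer without either array.

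At 96 h 18 of the 29 clusters fell and 1, Chordc1, rose, where 10.1% of all clusters were called lower and 11.9% higher. The falls ran from 3.82-fold for Fkbp5 to 1.15-fold for Hspa8. The log2 change was below 0 in 24 of the 29 clusters, with a median of -0.42 against 0.00058 over all clusters tested. The 48 h and 96 h comparisons share the 3 untreated arrays. Tested directly, 5 clusters fell from 48 h to 96 h (Hspa4, Fkbp4, Fkbp5, Hspd1 and Cct7) and 1 rose (Cryab), where 4.32% of all clusters were called lower and 4.38% higher. Without either 96 h array fewer members were called lower, and calls over all clusters also became fewer. Of the 19 calls, 9 held under each alternative that was run (Hspa4, Hspa4l, Hsp90aa1, Fkbp4, Fkbp5, Hspd1, Tcp1, Cct3 and Cct7).

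**Figure D1:**
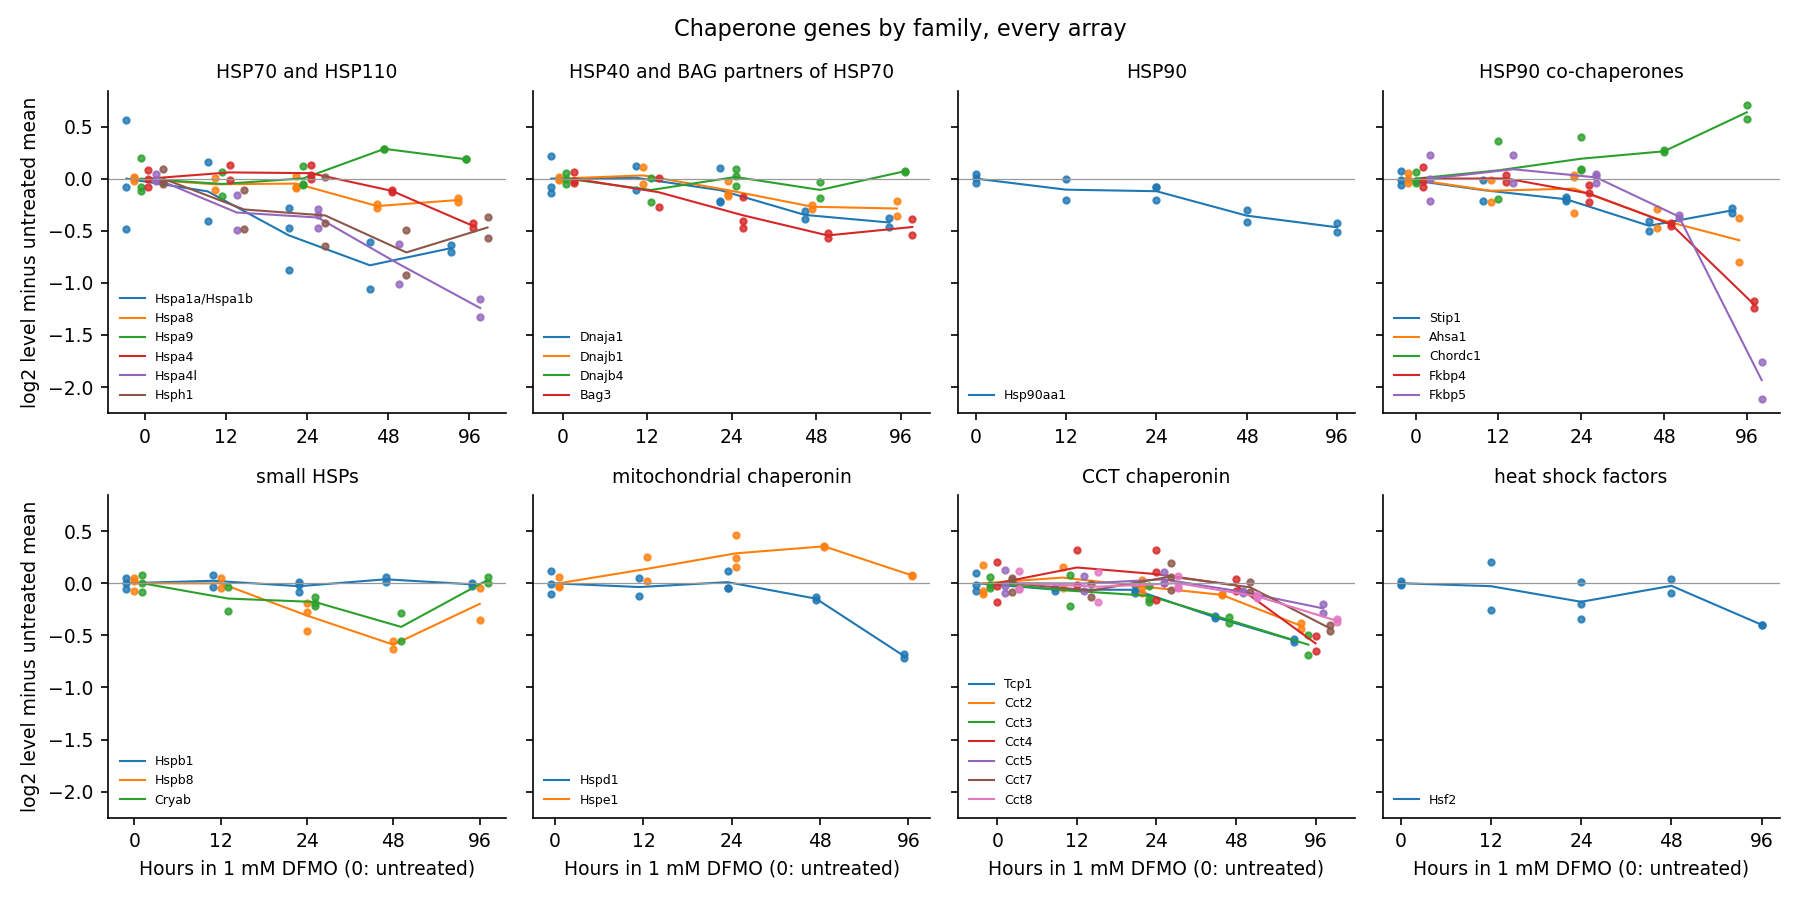
Log2 level of each chaperone cluster in each of the 12 arrays, minus its mean over the 3 untreated arrays, by hours in DFMO (times evenly spaced), with 1 panel per family, points for arrays and lines through group means. Fkbp5 and Fkbp4 lie lowest in the co-chaperone panel at 96 h, all 7 CCT subunits of the set lie below 0 at 96 h, and Hspb8 and Cryab are lower at 48 h than at 96 h.

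**Figure D2:**
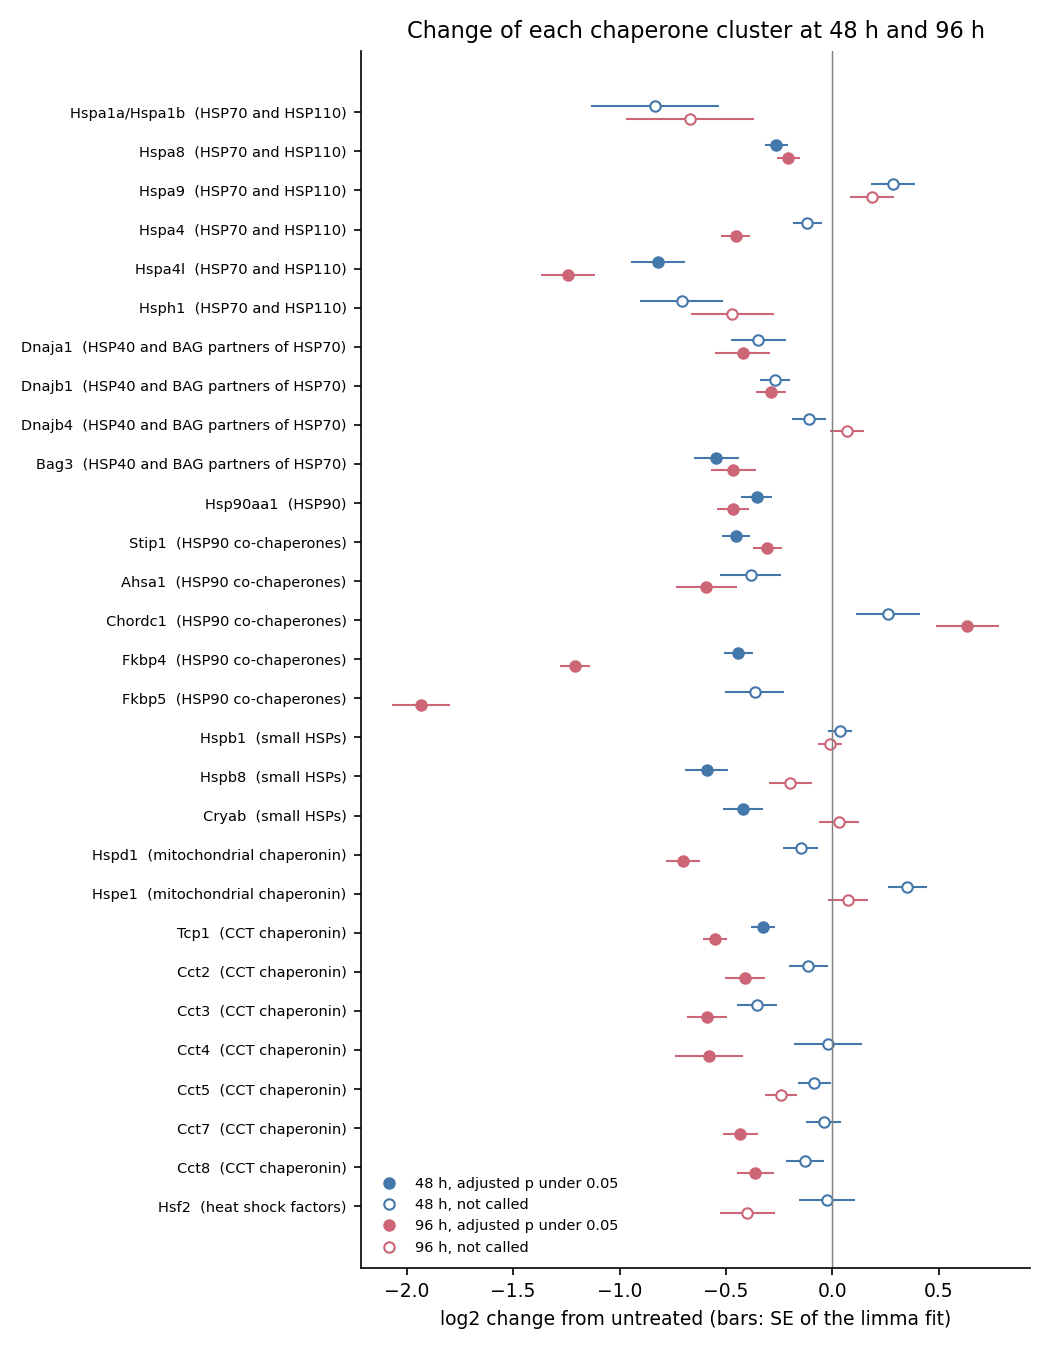
Log2 change against untreated cells (horizontal axis) of the 29 clusters, 1 line per cluster with its family in brackets, at 48 h (blue) and 96 h (red); bars are standard errors of the fit and filled points have an adjusted p under 0.05. Fkbp5 (-0.36 at 48 h, -1.93 at 96 h) and Fkbp4 (-0.44 and -1.21) show the widest gaps between the times, and Chordc1 (0.26 and 0.64) is the only filled point right of 0.

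Among the HSP70 and HSP110 proteins, 2 of 6 clusters fell at 48 h and 3 of 6 at 96 h, with median log2 changes of -0.49 and -0.46. For this and each later family or list, 3.17% of all clusters were called lower and 2.7% higher at 48 h. At 96 h these shares were 10.1% and 11.9%. The median log2 change over all clusters tested was -0.03 at 48 h and 0.00058 at 96 h. Hspa4l, an HSP110 nucleotide exchange factor, had log2 levels of 9.47, 9.48 and 9.54 in untreated arrays, 9.01 and 9.34 after 12 h, 9.21, 9.15 and 9.02 at 24 h, 8.49 and 8.87 after 48 h, and 8.34 and 8.17 at 96 h. Every treated array lay below all untreated ones, and the 96 h arrays lay lowest. Its log2 change was -0.82 ± 0.13 (SE) at 48 h (adjusted p = 0.0070) and -1.24 ± 0.13 at 96 h (adjusted p = 1.0e-04), a 2.37-fold fall. The 48 h call was lost without 48 h replicate 1 (log2 change -0.63).

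Hspa4, a second cytosolic HSP110 protein, was measured at 10.58, 10.66 and 10.75 in untreated cells, 10.65 and 10.80 after 12 h, 10.70, 10.79 and 10.66 at 24 h, 10.56 and 10.54 after 48 h, and 10.19 and 10.23 at 96 h. Only the 96 h arrays stood clearly apart, below every other array. Hspa4 had a log2 change of -0.45 ± 0.07 at 96 h against untreated cells (adjusted p = 0.0010) and of -0.34 ± 0.07 from 48 h to 96 h (adjusted p = 0.0224). The later step was not a call once any array of the 48 h or 96 h group was left out (log2 changes -0.36 to -0.31), with dim clusters left out (adjusted p = 0.0629) or with trend and robust settings (0.0658).

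Hspa8, the constitutive cytosolic HSP70, read 12.54, 12.51 and 12.55 in untreated arrays, 12.42 and 12.54 after 12 h, 12.46, 12.56 and 12.45 at 24 h, 12.25 and 12.29 after 48 h, and 12.35 and 12.31 at 96 h. The 48 h and 96 h arrays were below the untreated ones by a small margin on a bright cluster. The log2 change of Hspa8 was -0.26 ± 0.05 at 48 h (adjusted p = 0.0209) and -0.21 ± 0.05 at 96 h (adjusted p = 0.0205). The 48 h call was lost without any 1 of the 5 arrays compared (log2 changes -0.28 to -0.24) and the 96 h call without untreated replicate 1 or 3 or either 96 h array (-0.23 to -0.18). Both were also lost at the same log2 change with dim clusters left out (adjusted p = 0.102 and 0.111) and with trend and robust settings in limma (0.060 and 0.073), and the 48 h call with the mean of all clusters of the gene (0.0948). Of 4 further clusters annotated to Hspa8, fitted with all 35399 clusters of the table, 1 also fell at 48 h (-0.29, adjusted p = 0.0250) and 96 h (-0.24, adjusted p = 0.0148). The others were not calls at either time. At 96 h they gave -0.40 (adjusted p = 0.122) and, on clusters shared with Snord14c and Snord14d, -0.26 (0.368) and -0.26 (0.349). At 48 h the clusters shared with Snord14c and Snord14d gave -0.10 and -0.10 (adjusted p = 0.769 and 0.777), and the remaining cluster -0.37 (0.240).

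The other HSP70 and HSP110 genes did not pass the test. Hspa1a and Hspa1b, the stress-inducible cytosolic HSP70 pair on their shared cluster, read 6.51, 6.10 and 7.14 in untreated arrays, 6.18 and 6.75 after 12 h, 5.71, 6.30 and 6.12 at 24 h, 5.52 and 5.98 after 48 h, and 5.95 and 5.88 at 96 h. Untreated arrays alone spread over more than 1 log2 unit, and the 48 h and 96 h arrays all lay below them. The log2 changes were -0.83 ± 0.30 at 48 h (adjusted p = 0.156) and -0.67 ± 0.30 at 96 h (adjusted p = 0.173), so the largest change in size among members at 48 h was not a call. A dimmer cluster annotated to Hspa1a alone read 4.15, 4.45 and 4.22 in untreated arrays, near the array medians. At 96 h it was a call in the fit over clusters with 1 symbol (-0.27, adjusted p = 0.0417) but not in the fit over all clusters (adjusted p = 0.0652). Hsph1, the stress-inducible HSP110, read 10.31, 10.29 and 10.44 in untreated arrays, 9.42 and 9.86 at 48 h and 9.98 and 9.78 at 96 h, a log2 change of -0.71 ± 0.20 at 48 h (adjusted p = 0.0711) and -0.47 ± 0.20 at 96 h (adjusted p = 0.140). Hsph1 was a call at 48 h under 4 alternatives (dim clusters left out, array weights, trend and robust settings, only the 2 groups; adjusted p = 0.0283 to 0.0475), and at 96 h with only the 2 groups (0.0135). Hspa9, the mitochondrial HSP70, had log2 changes above 0, 0.29 ± 0.10 at 48 h (adjusted p = 0.160) and 0.19 ± 0.10 at 96 h (adjusted p = 0.292). It was a call at both times without untreated replicate 3 (0.39 and 0.29) and with the replicate number as a block (0.37 and 0.27), and at 48 h with array weights (0.35).

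Of the HSP40 and BAG genes, 1 of 4 fell at 48 h and 3 of 4 at 96 h, with median log2 changes of -0.31 and -0.35. Bag3, a nucleotide exchange factor that pairs HSP70 with small heat shock proteins for the clearance of aggregates, read 7.05, 7.03 and 7.13 in untreated arrays, 7.08 and 6.80 after 12 h, 6.90, 6.67 and 6.60 at 24 h, 6.55 and 6.51 after 48 h, and 6.69 and 6.53 at 96 h. All arrays from 24 h on lay below the untreated ones. For Bag3, the log2 change was -0.55 ± 0.11 at 48 h (adjusted p = 0.0172) and -0.46 ± 0.11 at 96 h (adjusted p = 0.0103). The 48 h call was lost without 48 h replicate 1 (-0.57) or 2 (-0.52), and the 96 h call without 96 h replicate 2 (-0.39).

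Dnajb1, the main stress-responsive HSP40 of the cytosol, read 7.99, 8.01 and 8.02 in untreated arrays, 8.12 and 7.95 after 12 h, 7.86, 7.98 and 7.84 at 24 h, 7.75 and 7.72 after 48 h, and 7.79 and 7.65 at 96 h. The untreated arrays were nearly equal and the late arrays lay below them. Against untreated cells Dnajb1 differed by a log2 change of -0.27 ± 0.07 at 48 h (adjusted p = 0.0548) and -0.29 ± 0.07 at 96 h (adjusted p = 0.0146), and the 96 h call was lost without 96 h replicate 2 (-0.21) and with trend and robust settings (-0.29, adjusted p = 0.107). At 48 h Dnajb1 was a call with array weights (adjusted p = 0.0185) and with only the 2 groups (0.0440). Dnaja1, a farnesylated HSP40, read 9.61, 9.56 and 9.91 in untreated arrays, 9.58 and 9.82 after 12 h, 9.47, 9.48 and 9.79 at 24 h, 9.31 and 9.38 after 48 h, and 9.23 and 9.31 at 96 h. Its log2 change at 96 h was -0.42 ± 0.13 (adjusted p = 0.0438), a call lost without untreated replicate 1 (-0.46) or 3 (-0.31), without 96 h replicate 1 (-0.38) or 2 (-0.46), in the fit over all clusters (adjusted p = 0.0673), with the mean of its clusters (0.0692) and with only the 2 groups (0.0535). The other Dnaja1 clusters were not calls at 96 h in the fit over all clusters. They gave -0.24 (adjusted p = 0.609) and, on a cluster shared with Mir207, -0.18 (adjusted p = 0.115). Dnajb4, another HSP40, was not a call at either time (log2 changes -0.11 and 0.07).

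Hsp90aa1, the inducible cytosolic HSP90, fell at both late times. Its log2 level was 11.88, 11.92 and 11.97 in untreated arrays, 11.72 and 11.92 after 12 h, 11.72, 11.84 and 11.84 at 24 h, 11.51 and 11.63 after 48 h, and 11.41 and 11.50 at 96 h. The 24 h arrays already lay under the lowest untreated array, and the late arrays lay lower still. The log2 change of Hsp90aa1 was -0.36 ± 0.07 at 48 h (adjusted p = 0.0235) and -0.47 ± 0.07 at 96 h (adjusted p = 0.0014). Its other clusters gave -0.43 (adjusted p = 0.0046) and -0.47 (adjusted p = 0.0008) at 96 h in the fit over all clusters. The 48 h call was lost without 48 h replicate 1 (-0.30) or 2 (-0.41) and without untreated replicate 2 (-0.35) or 3 (-0.33).

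The HSP90 co-chaperones held the widest spread of any family at 96 h, with 4 of 5 lower, 1 of 5 higher and a median log2 change of -0.59; at 48 h 2 of 5 were lower and the median was -0.38. The 96 h median was -0.80 without 96 h replicate 1 and -0.38 without the second 96 h array. Fkbp5 (FKBP51), an immunophilin that restrains steroid receptors bound to HSP90, read 7.92, 8.13 and 8.36 in untreated arrays, 8.09 and 8.36 after 12 h, 8.10, 8.19 and 8.16 at 24 h, 7.76 and 7.79 after 48 h, and 6.38 and 6.03 at 96 h. Levels up to 24 h overlapped with untreated cells, and the 96 h arrays lay far below every other array. For Fkbp5, the log2 change was -0.36 ± 0.14 at 48 h (adjusted p = 0.177), -1.93 ± 0.14 at 96 h (adjusted p = 1.1e-05), a 3.82-fold fall, and -1.57 ± 0.15 from 48 h to 96 h (adjusted p = 0.000237). The 96 h fall and the later step were calls under each alternative run.

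Fkbp4 (FKBP52), the related immunophilin that favours steroid receptor activity, read 8.83, 8.89 and 9.02 in untreated arrays, 8.88 and 8.95 after 12 h, 8.68, 8.85 and 8.77 at 24 h, 8.46 and 8.48 after 48 h, and 7.74 and 7.67 at 96 h. The groups from 24 h on stepped down without overlap between 24 h, 48 h and 96 h. Against untreated cells Fkbp4 differed by a log2 change of -0.44 ± 0.07 at 48 h (adjusted p = 0.00742) and -1.21 ± 0.07 at 96 h (adjusted p = 2.36e-06), a 2.31-fold fall, and from 48 h to 96 h it was -0.77 ± 0.08 (adjusted p = 0.000266). With 48 h replicate 1 or 2 left out, the 48 h value was -0.43 or -0.45 and not a call, while the 96 h call held under each alternative run.

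Stip1, the adaptor that bridges HSP70 and HSP90, read 10.66, 10.75 and 10.62 in untreated arrays, 10.46 and 10.66 after 12 h, 10.48, 10.49 and 10.46 at 24 h, 10.18 and 10.27 after 48 h, and 10.34 and 10.40 at 96 h. The 48 h arrays were the lowest of the course, and the 96 h arrays lay between them and the 24 h arrays. The log2 change of Stip1 was -0.45 ± 0.07 at 48 h (adjusted p = 0.00583) and -0.31 ± 0.07 at 96 h (adjusted p = 0.0089), with the first call lost if 48 h replicate 1 was left out (-0.41) and the second if 96 h replicate 1 was (-0.28). The change from 48 h to 96 h, 0.15 ± 0.07, was not a call (adjusted p = 0.295).

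Ahsa1, which stimulates the ATPase of HSP90, read 9.00, 9.10 and 9.05 in untreated arrays, 8.83 and 9.04 after 12 h, 9.06, 9.08 and 8.72 at 24 h, 8.76 and 8.57 after 48 h, and 8.67 and 8.25 at 96 h. The late arrays lay below the untreated ones, but the 96 h pair lay far apart. For Ahsa1, the log2 change was -0.38 ± 0.14 at 48 h (adjusted p = 0.169) and -0.59 ± 0.14 at 96 h (adjusted p = 0.0146), and without 96 h replicate 2 the latter was -0.38 and not a call. With only the 2 groups in the fit, Ahsa1 was a call at 48 h (adjusted p = 0.0493).

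Chordc1, a zinc-binding HSP90 partner whose start carries the 23-base block shown above, was the only member that rose. It read 8.68, 8.71 and 8.79 in untreated arrays, 8.52 and 9.08 after 12 h, 8.81, 9.12 and 8.81 at 24 h, 8.98 and 9.00 after 48 h, and 9.43 and 9.29 at 96 h. The 96 h arrays were the highest of the course, and from 24 h on every array lay above the untreated ones. Against untreated cells Chordc1 differed by a log2 change of 0.26 ± 0.15 at 48 h (adjusted p = 0.378) and 0.64 ± 0.15 at 96 h (adjusted p = 0.0128), a 1.55-fold rise that was 0.57 and not a call without 96 h replicate 1.

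Among the small heat shock proteins, 2 of 3 fell at 48 h and 0 of 3 were called at 96 h, with median log2 changes of -0.42 and -0.01. The 96 h median is the value of Hspb1, which lay near the background of the array. Hspb8 and Cryab had log2 changes of -0.20 and 0.03 at 96 h. Cryab (alphaB-crystallin) read 9.21, 9.05 and 9.14 in untreated arrays, 9.10 and 8.87 after 12 h, 8.95, 8.91 and 9.00 at 24 h, 8.58 and 8.85 after 48 h, and 9.20 and 9.13 at 96 h. The 48 h arrays were the lowest and the 96 h arrays lay within the untreated range. The log2 change of Cryab was -0.42 ± 0.09 at 48 h (adjusted p = 0.0318), 0.03 ± 0.09 at 96 h (adjusted p = 0.900), and 0.45 ± 0.10 from 48 h to 96 h (adjusted p = 0.0257). The 48 h call was lost without 48 h replicate 1 (-0.28) or any untreated array (-0.46 to -0.38), and the later step without 48 h replicate 1 (0.31) or 96 h replicate 1 (0.42) or 2 (0.48). The 48 h call was also lost under 4 other alternatives (all clusters, trend and robust settings, only the 2 groups, replicate block; adjusted p = 0.0547 to 0.0788), and the later step with only the 2 groups (0.0843).

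Hspb8, the small heat shock protein that acts with BAG3, read 8.95, 9.04 and 9.08 in untreated arrays, 8.97 and 9.07 after 12 h, 8.83, 8.56 and 8.75 at 24 h, 8.47 and 8.40 after 48 h, and 8.98 and 8.68 at 96 h. The 48 h arrays were the lowest, and 1 of the 96 h arrays was back within the untreated range. For Hspb8, the log2 change was -0.59 ± 0.10 at 48 h (adjusted p = 0.0110), lost without 48 h replicate 1 (-0.63) or 2 (-0.55), and -0.20 ± 0.10 at 96 h (adjusted p = 0.239). The later step, 0.39 ± 0.11, missed the threshold (adjusted p = 0.0615), and was a call with array weights (0.0376) and without 96 h replicate 2 (log2 change 0.54). Hspb1 (HSP25 in the mouse) stayed between 3.56 and 3.73 in all arrays, a level like that of the leukocyte markers and near the background of the array, and its log2 changes were 0.04 at 48 h and -0.01 at 96 h.

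Of the CCT ring, which folds actin and tubulin, the set held 7 subunits, and Cct6a is given with the further genes below. Of these 7, 1 fell at 48 h and 6 at 96 h. All 7 had negative log2 changes at both times, with medians of -0.11 and -0.43. Tcp1, the alpha subunit, read 11.41, 11.47 and 11.58 in untreated arrays, 11.44 and 11.41 after 12 h, 11.41, 11.47 and 11.39 at 24 h, 11.17 and 11.15 after 48 h, and 10.95 and 10.93 at 96 h. The 3 early groups overlapped, and the 48 h and 96 h groups then stepped down. Tcp1 differed from untreated cells by a log2 change of -0.33 ± 0.06 at 48 h (adjusted p = 0.0115), and -0.55 ± 0.06 at 96 h (adjusted p = 1.1e-04). At 48 h the Tcp1 call was lost without replicate 1 (-0.34) or 2 (-0.31), with dim clusters left out (adjusted p = 0.0510) and with only the 2 groups (0.0582).

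Of the other 6 subunits, 5 fell at 96 h and 0 at 48 h, although Cct3 was a call at 48 h with the replicate block (-0.35, adjusted p = 0.0345), with array weights (0.0232) and with only the 2 groups (0.0351). Cct3 read 10.35, 10.38 and 10.45 in untreated arrays, 10.01 and 10.07 at 48 h, and 9.71 and 9.90 at 96 h, a log2 change of -0.59 ± 0.09 at 96 h (adjusted p = 0.0014). Cct7 read 10.60, 10.72 and 10.74 in untreated arrays, 10.70 and 10.60 at 48 h, and 10.29 and 10.23 at 96 h, with log2 changes of -0.43 ± 0.08 at 96 h (adjusted p = 0.0040) and -0.39 ± 0.09 from 48 h to 96 h (adjusted p = 0.0260). Cct7 at 48 h overlapped with untreated cells, and its later step was not a call once any array of the 48 h or 96 h group was left out (-0.44 to -0.34).

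Cct2 read 11.15, 11.19 and 11.44 in untreated arrays, 11.15 and 11.14 at 48 h and 10.82 and 10.88 at 96 h, a log2 change of -0.41 ± 0.09 (adjusted p = 0.0102). Cct8 read 10.36, 10.36 and 10.54 in untreated arrays, 10.30 and 10.27 at 48 h and 10.04 and 10.07 at 96 h, a log2 change of -0.36 ± 0.09 (adjusted p = 0.0159). Cct4 had the widest untreated spread of the CCT subunits in the set, 10.56, 10.42 and 10.80. It read 10.63 and 10.52 at 48 h and 9.94 and 10.09 at 96 h, a log2 change of -0.58 ± 0.16 (adjusted p = 0.0275). Its step from 48 h to 96 h (-0.56, adjusted p = 0.0888) was a call under 5 alternatives (dim clusters left out, array weights, trend and robust settings, only the 2 groups, replicate block; 0.0305 to 0.0484). For all 3, the 96 h arrays lay below every untreated array.

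Cct5, at 10.57, 10.64 and 10.79 in untreated arrays and 10.47 and 10.38 at 96 h, had a log2 change of -0.24 ± 0.08 and missed the threshold (adjusted p = 0.0500388), and was a call without untreated replicate 1 (-0.29), with arrays centred on their medians (0.0439) and with the mean of all clusters of a gene (0.0488). Leaving out 96 h replicate 1 ended the 96 h calls of Cct2 (-0.38), Cct4 (-0.50) and Cct8 (-0.34). Leaving out 96 h replicate 2 ended those of Cct4 (-0.65) and Cct8 (-0.38). The Cct4 call was also lost without untreated replicate 1 (-0.59) or 3 (-0.47). The 9 proliferation genes lay 4.05 lower at 96 h in the median, beside these falls.

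Of the mitochondrial chaperonin pair, with a start of each gene on either side of 1 interval of DNA, Hspd1 fell at 96 h. Hspe1 was not a call with default settings, but was higher at 48 h under 3 alternatives and under a run chosen after seeing the data, given at the end. Hspd1 (HSP60) read 11.38, 11.47 and 11.60 in untreated arrays, 11.36 and 11.53 after 12 h, 11.44, 11.60 and 11.44 at 24 h, 11.32 and 11.35 after 48 h, and 10.80 and 10.77 at 96 h. Its 96 h arrays lay below every other array, while the earlier groups overlapped or nearly so. Its log2 change against untreated cells was -0.15 ± 0.08 at 48 h (adjusted p = 0.350) and -0.70 ± 0.08 at 96 h (adjusted p = 0.000212), and it was -0.55 ± 0.09 from 48 h to 96 h (adjusted p = 0.00455), and both calls held under each alternative run.

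Hspe1 (HSP10) read 10.94, 10.95 and 11.04 in untreated arrays, 11.00 and 11.23 after 12 h, 11.22, 11.44 and 11.14 at 24 h, 11.32 and 11.34 after 48 h, and 11.04 and 11.06 at 96 h. The 24 h and 48 h arrays lay above the untreated ones and the 96 h arrays lay just above them. The log2 change of Hspe1 was 0.35 ± 0.09 at 48 h (adjusted p = 0.0587) and 0.07 ± 0.09 at 96 h (adjusted p = 0.709), neither a call. At 48 h it was a call with arrays centred on their medians (0.39, adjusted p = 0.0401), with array weights (0.37, adjusted p = 0.0123) and with only the 2 groups (0.35, adjusted p = 0.0327).

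The difference of the 2 log2 levels within an array puts both genes on the same footing, although its size also holds the probes' own brightness and only its change over time can be read. Hspd1 minus Hspe1 was 0.44, 0.53 and 0.56 in untreated arrays, 0.36 and 0.30 after 12 h, 0.22, 0.17 and 0.31 at 24 h, -0.0048 and 0.0138 after 48 h, and -0.24 and -0.29 at 96 h. Among neighbouring times, only 12 h and 24 h overlapped, and the group mean was lower at each later time. It averaged -0.27 ± 0.04 (SD, n = 2) at 96 h against 0.51 ± 0.06 (SD, n = 3) in untreated cells, a difference of -0.77. The other cluster annotated to each gene gave 0.24, 0.27 and 0.28 in untreated arrays, 0.02 and 0.13 after 12 h, -0.03, 0.04 and 0.09 at 24 h, -0.25 and -0.12 after 48 h, and -0.74 and -0.72 at 96 h, a difference of -0.99. This pair was chosen after its values were seen, so the difference is a description with no test, and which of the clusters lies on the genes and which on a near-identical copy is not known here.

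**Figure D3:**
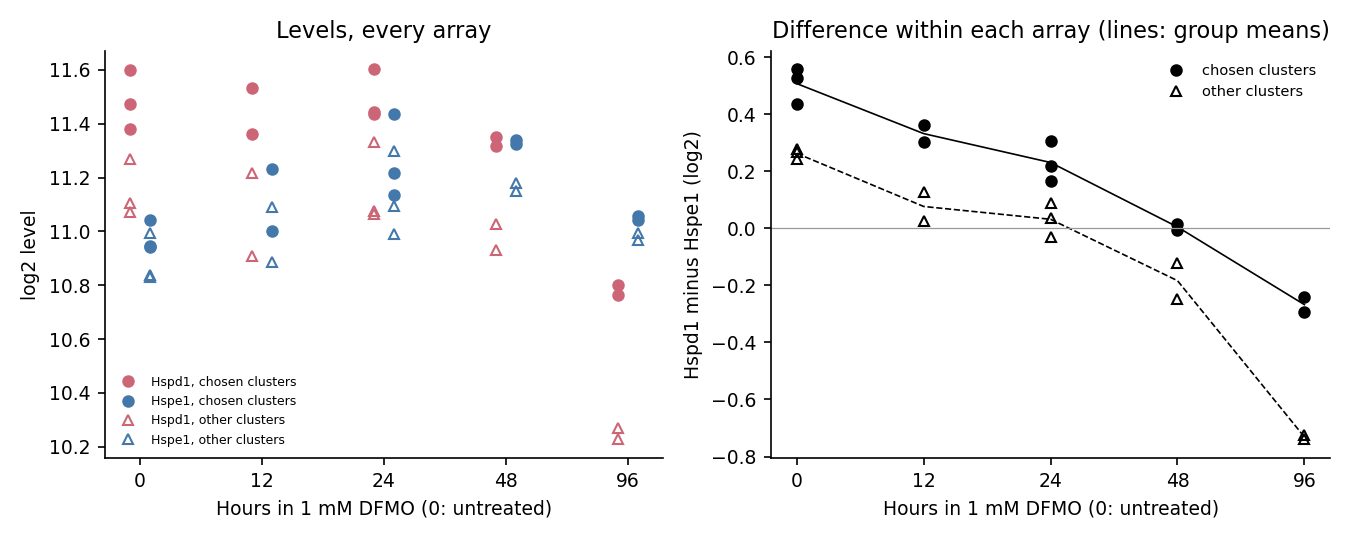
Left, log2 levels of Hspd1 (red) and Hspe1 (blue) in each array by hours in DFMO; right, Hspd1 minus Hspe1 within each array, with lines through group means, for the chosen clusters (filled circles) and the other cluster of each gene (open triangles). With the chosen clusters the difference runs from 0.44 to 0.56 in untreated arrays and from -0.29 to -0.24 at 96 h.

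Hsf2, the heat shock factor of the set that was measured, read 7.95, 7.98 and 7.95 in untreated arrays, between 7.62 and 8.16 from 12 h to 48 h, and 7.56 and 7.56 at 96 h. The 96 h arrays lay below all untreated ones, but 12 h and 24 h arrays spread as widely. The log2 change of -0.40 ± 0.13 at 96 h missed the threshold (adjusted p = 0.0568), but was a call with dim clusters left out (0.0360), with array weights (0.0333) and with only the 2 groups (0.00415).

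Further chaperone genes of the same systems, 72 of 72 measured, were called in both directions at 96 h. At 48 h 2 of the 72 rose, close to the share of all clusters called higher (2.7%), and 0 fell, where 3.17% of all clusters were called lower. The 96 h counts were 13 higher and 11 lower of 72, beside 11.9% and 10.1% of all clusters. The median log2 change at 96 h was 0.02, against -0.42 for the members. The 2 that rose at 48 h were Dnajc15 (0.81 ± 0.18, adjusted p = 0.0322) and Dnaja3 (0.26 ± 0.06, adjusted p = 0.0356), both mitochondrial J-domain proteins. Among 15 genes of mitochondrial protein folding and proteolysis, 4 rose and 1 fell at 96 h, the log2 change was above 0 in 13, and the median was 0.22. Of the 4, Clpb stands on a cluster shared with the ribosomal protein gene Rpl31, and on a cluster with its symbol alone it was not a call (0.05). Hscb, an iron-sulphur J-domain protein, rose by 0.78 ± 0.13 (adjusted p = 0.00167), and Htra2, a protease of the intermembrane space, had -0.48 ± 0.12 (adjusted p = 0.0185; not a call without untreated replicate 3, -0.44, or 96 h replicate 2, -0.37).

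Among 23 other HSP70 and HSP40 genes, 3 were called higher and 3 lower at 96 h (median -0.03), close to the share of all clusters. Dnajb2, an HSP40 best known from neurons, rose by 0.53 ± 0.07 (adjusted p = 0.000649), and Dnajc2, which works at the ribosome, fell by 0.72 ± 0.12 (adjusted p = 0.00213). Of 12 other HSP90 genes 2 rose and 5 fell (median -0.10), with Sugt1 at 0.96 ± 0.23 (adjusted p = 0.0122; 0.73 and not a call without 96 h replicate 2) and Rpap3 at -1.09 ± 0.24 (adjusted p = 0.0086; -0.94 and not a call without 96 h replicate 1).

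In a list of 15 genes, the CCT and prefoldin partners with the ring subunit Cct6a among them, 3 rose and 1 fell at 96 h (median 0.04). Pfdn5, a prefoldin subunit that hands actin and tubulin to CCT, had 0.95 ± 0.25 (adjusted p = 0.0221; not a call without untreated replicate 2, 0.76, or 96 h replicate 1, 1.08, or 2, 0.83). Cct6a, the zeta subunit of the ring, had -0.37 ± 0.12 (adjusted p = 0.0486), a call lost when any 1 of the 5 arrays was left out (-0.43 to -0.31). Of 4 other small heat shock proteins 0 rose and 1 fell at 96 h, Hspb6 (-1.37 ± 0.22, adjusted p = 0.0015). Among 3 other genes of the heat shock factor system 1 rose, Hsbp1, a binding protein that restrains heat shock factor 1 (0.97 ± 0.13, adjusted p = 0.000596).

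**Figure D4:**
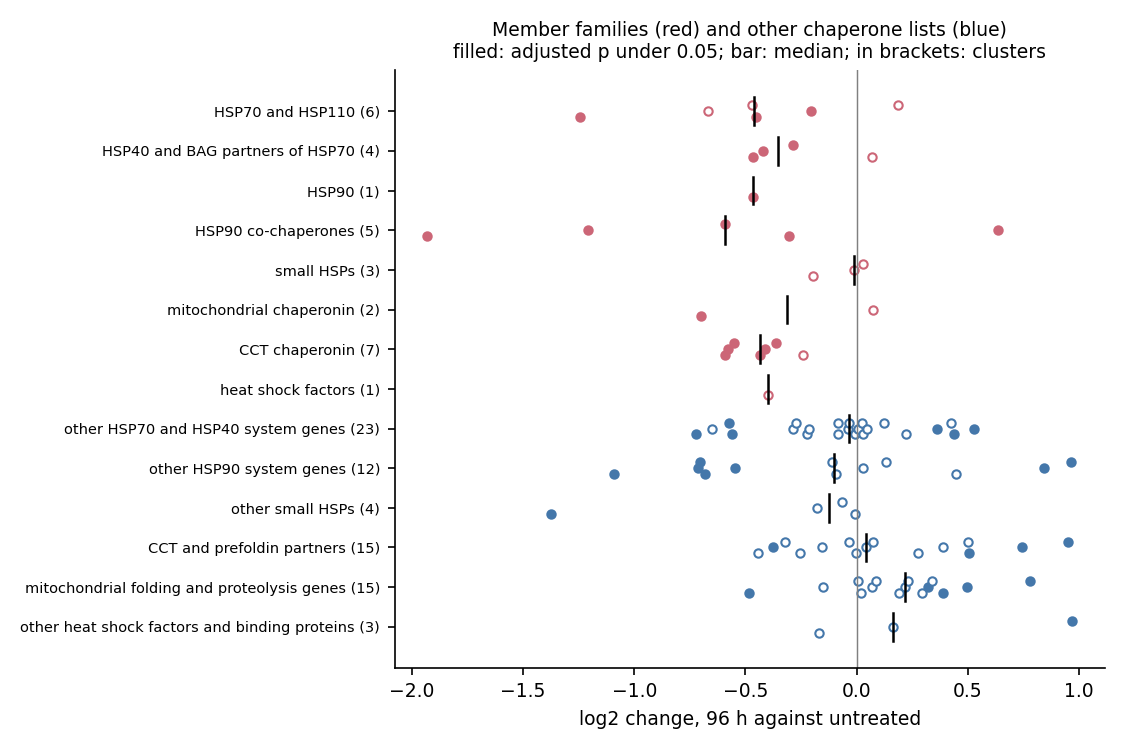
Log2 change at 96 h against untreated cells (horizontal axis) for each cluster of the 8 member families (red) and of the further chaperone lists (blue), with filled points for an adjusted p under 0.05 and a bar at the median. The median of the CCT subunits in the set lies at -0.43 and that of the CCT and prefoldin partners, a list that also holds the subunit Cct6a, at 0.04. Left of 0, 18 member clusters are filled.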

How the data were processed

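The authors deposited 1 table of log2 values, 1 line per transcript cluster, for 12 arrays. Per the submitters' processing notes the tools were Partek and RMA (background correction, quantile normalisation and probe summary); no version is named. Quantile normalisation hides a change of all genes in 1 direction, and background stays in the values, so folds near the floor are too small. No genome build of the array was given here, so clusters have no coordinates. The arrays' number limits the precision, and 0 columns of values lacked a sample.

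Of 35399 clusters, 21789 had 1 symbol in the platform annotation, 1621 several and 11989 none. Group means over the 12 arrays were compared with limma 3.58.1 under R 4.3.3 (lmFit, eBayes), with p-values adjusted (Benjamini-Hochberg) over 20223 clusters. The script was tested on simulated data, with Python 3.11.15, pandas 2.3.3 and matplotlib 3.10.9 for promoters and figures. Members and lists were chosen with earlier results of these data known. Members called at 48 h, at 96 h or in a step are named with values, as are the largest rise and fall called at 96 h in each further list; the others are given by range, counts or a short value. The labels number the replicates, but name no shared litter or day. At 24 h every same-numbered pair correlated above 0.1 with the untreated arrays (0.152, 0.291 and 0.584, as deviations from group means), as did unlike pairs 1 and 2 (0.239) and 2 and 1 (0.124). At 12, 48 and 96 h same-numbered pairs ran from -0.258 to 0.192. Unlike pairs at these times ran from -0.322 to 0.322, both ends at 12 h with untreated replicate 3. The block was therefore run as an alternative. Where leaving an array out left 1 in a group, that array was assumed to vary like the other groups.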

Additional observations from a re-analysis of the deposited data

Results flagged for a closer look

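For 6 members the change against untreated cells differed between 48 h and 96 h, by the direct test of 96 h against 48 h. The log2 difference was -1.57 for Fkbp5, -0.77 for Fkbp4, -0.55 for Hspd1, -0.39 for Cct7, -0.34 for Hspa4 and 0.45 for Cryab. For Cryab the 48 h fall had gone at 96 h, and for the other 5 the level was lower at 96 h than at 48 h. The groups of 2 or 3 arrays were too small for a search for single arrays that stand apart.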

How the results depend on the processing

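No member changed direction while being a call under any alternative. Of the calls, 0 of 9 at 48 h, 9 of 19 at 96 h and 3 of 6 between 48 h and 96 h held under each alternative run. Leaving out each array in turn gave 0 to 7 members lower and 0 to 1 higher at 48 h, 11 to 18 lower and 0 to 2 higher at 96 h, 0 changed between 24 h and 48 h, 3 to 4 changed between 48 h and 96 h, and 0 in either direction at 12 h and 24 h. Over all clusters, calls at 48 h and 96 h were also fewer whenever an array of the groups compared was left out. Family medians at 96 h ran from -0.48 to -0.41 (CCT), -0.50 to -0.40 (HSP70 and HSP110), -0.80 to -0.38 (HSP90 co-chaperones) and -0.0384 to -0.00018 (small heat shock proteins). The lowest small heat shock protein median was the value of Hspb1, near the background of the array. Hspb8 ran from -0.349 to -0.047 as each array was left out. Members higher at 48 h numbered 2 with array weights, and 1 with arrays centred on their medians, with only the arrays compared or with the replicate block. Array weights called 2 members changed between 24 h and 48 h. With the replicate block, 0 members were called at 12 h and 24 h, 1 member changed between 24 h and 48 h and 2 were higher at 96 h, Hspa9 among them (0.37 at 48 h, 0.27 at 96 h), Cct3 was lower at 48 h (-0.35), and Cryab at 48 h (-0.41) was no call. Without dim clusters (mean level under 5) the small heat shock protein median at 96 h was -0.0835, since Hspb1 dropped out. Chosen after seeing the data, leaving out untreated replicate 3, 12 h replicate 2 and 24 h replicate 3 together gave 1 member changed between 24 h and 48 h, 10 between 48 h and 96 h, and 2 higher at both 48 h and 96 h. In that run the log2 change of Hspe1 at 48 h was 0.39. The lists of alternatives given for single genes leave that run out, but the counts of calls that held under each alternative include it. Other causes were not tested.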
